A study of Mus musculus with 2 samples.

Results

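Natural killer (NK) cells respond to stimulation by secreting cytokines and chemokines and by killing target cells with granzymes and the death ligand FasL. The genes for 8 of these effector molecules, Ifng, Csf2, Xcl1, Ccl3, Il10, Gzma, Gzmb and Fasl, were examined for chromatin binding of Aiolos in mouse NK cells. Aiolos, the product of Ikzf3, is a zinc finger transcription factor of the Ikaros family. The genes were selected on the outcome itself, since each had at least 1 Aiolos peak assigned to it by the authors' annotation, so the presence of a peak is not a finding here. Of the 1404 peaks in the deposited list, 10 named 1 of these genes: Gzma and Gzmb had 2 each and the other 6 genes had 1 each.

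Binding was mapped by CUT&RUN, in which an antibody guides micrococcal nuclease, fused to protein A, to a chromatin protein and the released DNA is sequenced. There was 1 library with a primary antibody against Aiolos and 1 library without a primary antibody, which the labels mark as input, both from NK cells of mouse spleen. The cells had been grown in complete IMDM with 50 ng/ml interleukin-15 until a sample reached at least 500000 cells. The sources used here do not give the strain, sex, age or genotype of the mice. With 1 library per group there was no replicate check, so no test between libraries was made. Each interval of a fold below covers the counting error of the antibody tags only, not that of the background.

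Interferon gamma and GM-CSF (Csf2) act on macrophages and other myeloid cells, XCL1 and CCL3 attract immune cells, and interleukin-10 restrains inflammation. Granzyme A and granzyme B are serine proteases that enter the target cell through perforin pores, and FasL triggers apoptosis through the receptor Fas. Several of these genes are regulated in lymphocytes through elements far from the start as well as through promoters. For mouse Ifng, work in T and NK cells has named conserved non-coding sequences (CNS) by their distance from the start in kb, among them CNS-22, CNS-6, CNS+29 and CNS+46. AP-1, the complex of Fos and Jun family proteins named in the title of the series, and the Ikaros family have both been reported at the human granzyme B promoter.

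Each fold enrichment is the authors' own value, the level at the summit of a peak over its local background. The number of antibody tags at the summit and the background were recovered from the authors' fold and p-value. Over all 1404 peaks the summit held 4 to 63 tags with a median of 8, and the lowest -log10 q was 1.31. The authors' build is mm10, all coordinates are on it and count from 1, and a distance is positive downstream of the start in the direction of transcription.

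The Gzmb promoter is shown because it was the only promoter window, of the 7 effector genes in the RefSeq promoter table, that a peak reached. Il10 has no entry there. The window runs from 250 bases before the RefSeq start through the first 50 transcribed bases, on the minus strand of chromosome 14 (GRCm38.p6, the same assembly as mm10), chr14:56262285-56262584. Capitals mark a match to the AP-1 motif TGANTCA, searched on both strands.

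Gzmb promoter: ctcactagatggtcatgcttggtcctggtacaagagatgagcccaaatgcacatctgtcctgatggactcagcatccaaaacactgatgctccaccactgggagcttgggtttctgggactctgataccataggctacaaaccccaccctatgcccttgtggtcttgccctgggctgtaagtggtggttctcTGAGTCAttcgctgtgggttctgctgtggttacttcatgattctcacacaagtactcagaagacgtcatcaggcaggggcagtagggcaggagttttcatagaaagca

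The match, TGAGTCA, lay at positions -58 to -52 from the RefSeq start, within the Gzmb start peak and 248 bp from its summit. It was the only TGANTCA match in the window, which held 0 matches to GGGAA, the core of Ikaros family sites, on either strand. Of all 32851 promoter windows in the table, 7.81% held TGANTCA and 62.7% held GGGAA. Among the 845 windows that overlapped any peak of the list, 4.50% held TGANTCA and 64.4% held GGGAA. None of the other 6 windows held TGANTCA, and Csf2, Ccl3, Gzma and Fasl held GGGAA. These matches describe letters and not bound sites.

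Most peaks of the effector genes lay far from the start. The centre of 8 of the 10 peaks was over 1000 bp from the start of its annotated transcript, where 35.2% of all peaks of the list were. The authors placed 7 of the 10 in distal intergenic sequence, a class that held 13.8% of all peaks. Since the distances were known when the genes were chosen, these counts are a description. The summit was over 20 kb from the start at Ifng, Xcl1, Fasl and 1 of the peaks of Gzmb, which is 4 of the 8 peaks away from the start, against 31.2% of the 494 such peaks in the list. Of the 10 summits, 3 were upstream of the start and 7 downstream, among the latter those of the start peaks of Csf2 and Gzmb. Over all peaks, 750 summits were upstream and 654 downstream. Of the 8 effector peaks away from the start, 3 were upstream and 5 downstream, near the 241 and 253 of the 494 such peaks.

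**Figure D1:**
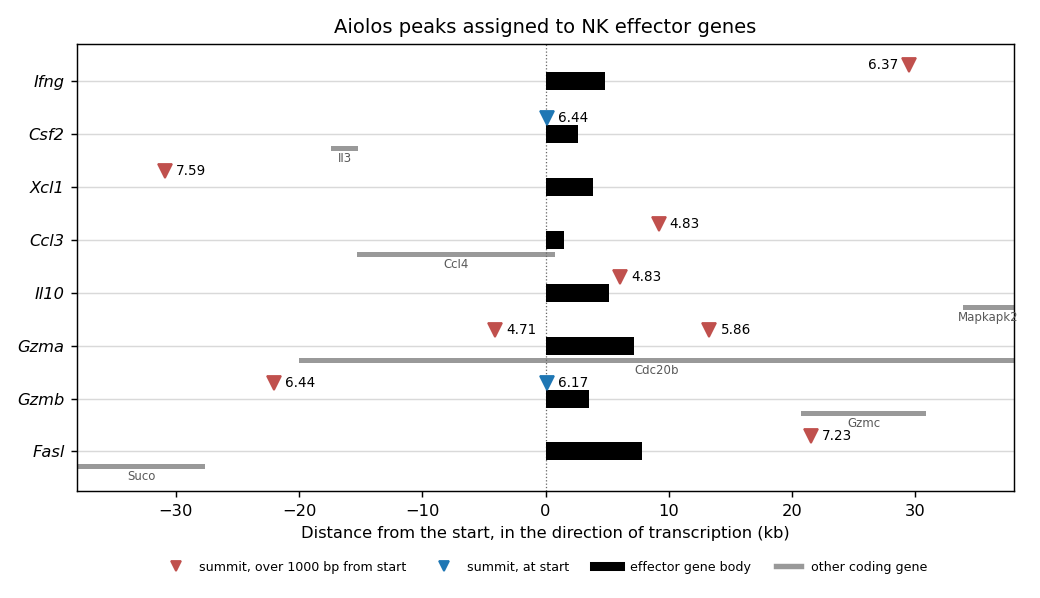
Position of the 10 summits (triangles, with the fold enrichment) against the start of each effector gene, in kb in the direction of transcription. Black bars are the gene bodies and grey bars other protein-coding genes of the gene table. The summits run from -30.9 kb at Xcl1 to 29.5 kb at Ifng, and those of Csf2 and Gzmb at the start are 0.099 and 0.122 kb downstream of it.

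Among the cytokines, Ifng (Entrez gene 15978), the signature cytokine of NK cells, had 1 peak downstream of the gene. It lay on chromosome 10 at 118470520 to 118470726, in intergenic sequence, with its summit 29.5 kb downstream of the start and 24.7 kb past the end of the gene. The summit held 10 tags over a background of 0.727 tags, or 6.37-fold enrichment with a -log10 q of 5.14. The 95% counting interval of this fold, an exact Poisson interval as for each fold below, ran from 3.35 to 11.2. By distance this is 0.53 kb from the nominal position of CNS+29, the closest of several elements compared, whose names are given in whole kb. CNS+20 is 9.53 kb from the summit on the side of the gene, and CNS+46 is 16.5 kb farther downstream. The element's own coordinates were not used here, so this is nearness by name and not an overlap. No peak was assigned to the Ifng promoter or to its upstream side.

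The Ifng locus was otherwise empty of peaks within 200 kb. The next coding gene upstream was Iltifb, a duplicate of the interleukin-22 gene, 146 kb away, and the next downstream was Dyrk2, a kinase gene, 410 kb away. The long non-coding RNA gene Ifngas1 lay 31.5 kb beyond the summit. The nearest peak assigned to another gene was that of Cand1, 794 kb from Ifng.

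Csf2 (Entrez gene 12981) was the cytokine gene with a peak at its start. The peak, on chromosome 11 at 54249430 to 54249668, reached 1 bp upstream and 237 bp downstream of the start of the transcript that the authors annotated. RefSeq places the Csf2 start 232 bp farther upstream, and on that model the whole peak lay in the gene, 231 to 469 bp downstream. The summit held 7 tags over a background of 0.242 tags, with a fold enrichment of 6.44 (3.07 to 12.4) and a -log10 q of 5.32. The peak was 239 bp wide. Il3, the cytokine gene that lies 15.2 kb upstream of Csf2, had no assigned peak, and the sequence between both genes held none, so the Csf2 peak was the only one within 200 kb.

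Il10 (Entrez gene 16153), the gene for an anti-inflammatory cytokine, had a peak just past its end. It lay on chromosome 1 at 131025714 to 131025922 with its summit 6.05 kb downstream of the start and 0.923 kb beyond the gene. The summit held 5 tags over 0.242 background tags, with a fold enrichment of 4.83 (2.11 to 10.2) and a -log10 q of 2.78, which made it rank 1226 of 1404 by q. A conserved element downstream of Il10 that binds Jun proteins has been described in T helper cells, but its coordinates were not used here. Its neighbours are Il19, a gene of the same cytokine family 74.4 kb upstream, and Mapkapk2, a kinase gene 28.7 kb downstream. No other peak lay within 200 kb of Il10.

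The chemokine genes had intergenic peaks on opposite sides of the start. Xcl1 (Entrez gene 16963) encodes the ligand that attracts dendritic cells with the receptor XCR1. Its peak, on chromosome 1 at 164966214 to 164966475, had its summit 30.9 kb upstream, the farthest of the 10. The summit held 8 tags over a background of 0.186 tags, the lowest background in the list, which gave the highest fold of the effector genes, 7.59 (3.76 to 14.1), with a -log10 q of 7.63. The long non-coding RNA genes Gm39692 and 1700029M03Rik lay between this peak and Xcl1, with 1700029M03Rik 3.54 kb from the summit. The nearest coding genes of Xcl1 were Dpt, an extracellular matrix gene 107 kb downstream, and Tbx19, a T-box gene 202 kb upstream.

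Ccl3 (Entrez gene 20302), the gene for MIP-1 alpha, had a peak on chromosome 11 at 83640134 to 83640638, 505 bp wide. Its summit was 9.18 kb downstream of the start and 7.67 kb past the end, with the pseudogene Rpl9-ps1 in between. The summit held 5 tags over 0.242 background tags, the same values as at Il10, with a fold enrichment of 4.83 (2.11 to 10.2). Ccl4, the gene for MIP-1 beta, lies beside Ccl3 on the far side of this peak, and its gene model in the table overlaps Ccl3. Its body was 8.45 kb from the summit. The authors assigned no peak to Ccl4, Ccl5, Ccl6 or Ccl9 of the same cluster, and for each of them the nearest peak was this one.

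The cytotoxic genes also had most of their peaks away from the start, and the granzyme genes had a pair each. Gzmb (Entrez gene 14939) encodes the granzyme that activates caspases in the target cell. Its start peak, on chromosome 14 at 56262122 to 56262697, was 576 bp wide, the widest of the 10, and reached from 437 bp upstream to 138 bp downstream of the annotated start. Its summit lay 122 bp downstream of that start and 16 bp from the downstream edge of the peak. It held 16 tags, the most of the 10 and rank 82 in the list, over a background of 1.76 tags, also the highest of the 10. The fold enrichment was therefore 6.17 (3.68 to 9.79), rank 774, with a -log10 q of 6.66.

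The other Gzmb peak lay on chromosome 14 at 56284141 to 56284467, in intergenic sequence with its summit 22026 bp upstream of the start. It held 7 tags over 0.242 background tags, and its fold of 6.44 (3.07 to 12.4) and -log10 q of 5.32 were equal to those of Csf2. This peak was on the side away from the other granzyme genes of the cluster, with the pseudogene Gm48200 between it and Gzmb and with Atp12a, an ion pump gene, as the next coding gene upstream, 102 kb from Gzmb. Gzmc, the nearest granzyme gene, was 20.5 kb from the summit of the start peak and 42.6 kb from that of the upstream peak. None of Gzmc, Gzmd, Gzme, Gzmf, Gzmg and Gzmn, the granzyme genes downstream of Gzmb on chromosome 14, had an assigned peak.

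Gzma (Entrez gene 14938) encodes a granzyme with trypsin-like specificity. Its peaks lay on both sides of the gene on chromosome 13. The downstream peak, at 113087514 to 113087720, had its summit 13.3 kb from the start with 6 tags over 0.194 background tags, a fold enrichment of 5.86 (2.68 to 11.8) and a -log10 q of 4.61. The upstream peak, at 113105021 to 113105233, had its summit 4.10 kb from the start with 6 tags over 0.485 background tags. Its fold of 4.71 (2.16 to 9.47) and its -log10 q of 2.30 were the lowest of the 10.

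In the gene table Gzma lies inside the body of Cdc20b, a gene of the CDC20 family, and so did both summits. The authors annotated the downstream peak as an intron of a Cdc20b transcript and the upstream peak as intergenic, and assigned both to Gzma. Gzmk, the other granzyme gene on this chromosome, was 66.6 kb from the upstream summit and had no assigned peak.

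**Figure D2:**
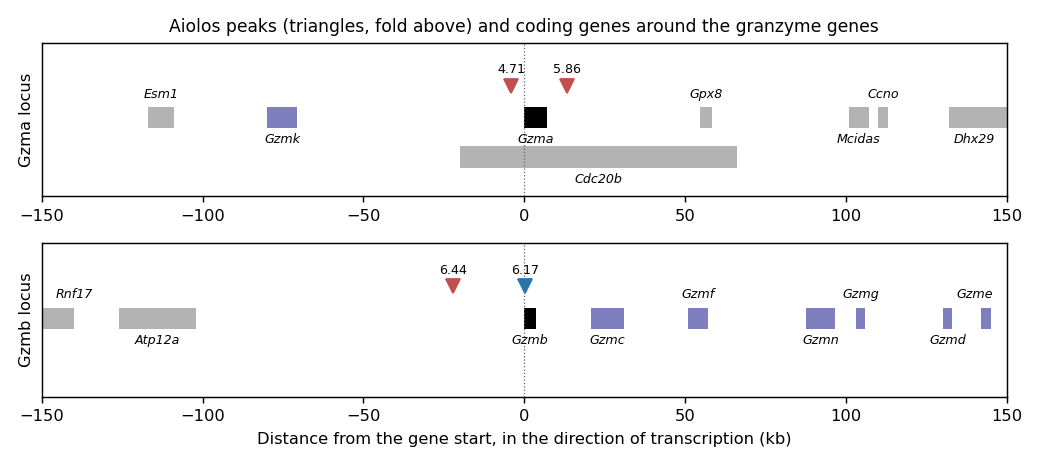
Protein-coding genes within 150 kb of Gzma (upper panel) and Gzmb (lower panel), in kb from the start in the direction of transcription. Triangles mark the Aiolos summits with their fold enrichment above, black bars Gzma and Gzmb, violet bars other granzyme genes and grey bars other coding genes. All 4 summits lie within 22026 bp of the start of Gzma or Gzmb and none at Gzmk or at Gzmc to Gzme.

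Fasl (Entrez gene 14103), the gene for the death ligand, had 1 peak on chromosome 1 at 161766933 to 161767315. Its summit was 21.5 kb downstream of the start and 13.7 kb past the end of the gene, inside the long non-coding RNA gene Gm31869. It held 15 tags over a background of 1.21 tags, with a fold of 7.23 (4.25 to 11.6) and a -log10 q of 7.89, the highest of the 10. Tnfsf18, the next coding gene on that side and also a TNF family ligand, was 275 kb from Fasl. Fasl was the 1 locus of the 8 with another gene's peak within 200 kb, a peak of 8.83-fold assigned to Suco, 88.5 kb away on the upstream side.

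By fold, most of these peaks were near the middle of the list or below it. Fold enrichments ran from 4.71 to 7.59 with a median of 6.27, against a median of 6.44 over all 1404 peaks. Of the 10, 2 were above that median, those of Xcl1 and Fasl, and those of Csf2 and the upstream Gzmb peak were equal to it. The 8 peaks away from the start had a median fold of 6.12, against 5.90 over the 494 such peaks of the list. By -log10 q, 5 of the 10 were at or above the median of the list, those of Csf2, Xcl1, Fasl and both of Gzmb. The median tag count was 7, against 8 over all peaks, and the median width 250.5 bp, against 265.5 bp.

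**Figure D3:**
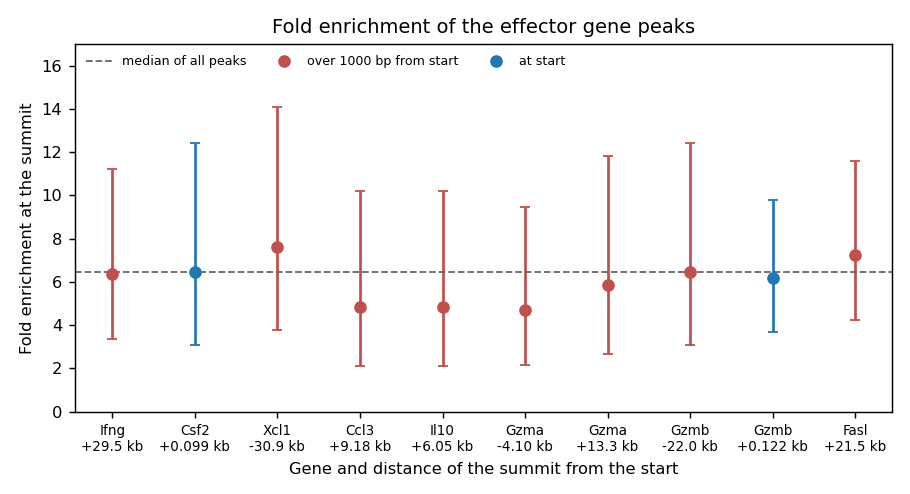
Fold enrichment at the summit of each effector gene peak, with 95% exact Poisson counting intervals as bars. The dashed line is the median of all 1404 peaks, 6.44. The intervals run over one another, from a lowest bound of 2.11 to a highest of 14.1, and each includes the dashed line.

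The order of the 10 peaks was not resolved at this depth. All 45 pairs of counting intervals overlapped, the highest lower bound being 4.25 at Fasl and the lowest upper bound 9.47 at Gzma. Equal folds arose because whole tags were set against few background levels. The values of Csf2 and of the upstream Gzmb peak were shared by 29 peaks of the list, those of Ccl3 and Il10 by 39 and those of Xcl1 by 48. The background tags at the summits ran from 0.186 at Xcl1 to 1.76 at the start of Gzmb. Only the Xcl1 peak was at the lowest background of the list, where 26.0% of all peaks were. The 3 peaks with 10 or more tags, at Ifng, Fasl and the start of Gzmb, were also the 3 with the highest background. A given p-value takes more tags at a higher background, so this link cannot be read as a trait of these peaks.

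**Figure D4:**
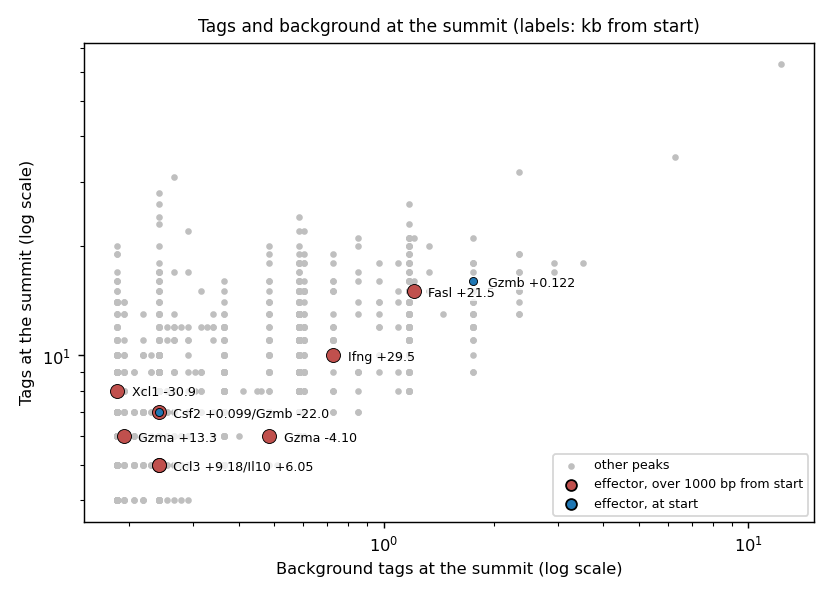
Antibody tags at the summit (vertical, log scale) against background tags (horizontal, log scale) for all 1404 peaks. Effector gene peaks are coloured and labelled with their distance from the start in kb. Gzmb at its start and Fasl, with 16 and 15 tags, sit at backgrounds of 1.76 and 1.21 tags, whereas Ccl3 and Il10 share a point at 5 tags.

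The authors' gene assignment was set against the neighbours in the gene table. The list gives each peak its distance from the start of the assigned gene, so nearness may have set the assignment. Agreement is therefore no check of it, and the same counts over all peaks were not made. For 8 of the 10 summits the effector gene was the nearest protein-coding gene by its body, and for the other 2, both at Gzma, the summit lay within Cdc20b. By the nearest start in the promoter table it was the effector gene for 9 summits, all but that of Il10, which has no entry there. With genes of any type counted, the effector gene was the nearest for 4 summits, since non-coding genes or pseudogenes lay closer at Xcl1, Ccl3, Fasl and upstream of Gzmb. In 7 of the 8 loci no peak of another gene lay within 200 kb of the effector gene. The same count was not made for other genes with a peak, so it shows no trait of these loci. The edge of the nearest other peak was 17.3 to 770 kb away, with a median of 210 kb, against 167 kb over all peaks, the shortest gaps being those within the pairs of Gzma and Gzmb.

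Other genes of the same pathways were looked up in the same list, beside the 5.38% of all 21900 protein-coding genes that had an assigned peak. Of 23 cytokine and chemokine genes, 6 had a peak (26.1%, 95% exact Clopper-Pearson interval 10.2 to 48.4), but 5 of them were the genes chosen for it. Of the other 18, 1 had a peak, a share close to the 5.38% of all protein-coding genes. This was Ccl1, a chemokine gene, with a peak in an intron of a longer transcript of Ccl1. The peak lay 24.2 kb upstream of the assigned start, with a fold of 5.90 (2.70 to 11.9). Tnf, Lta and Ltb, a cluster of TNF family cytokine genes, had none, with the nearest peak to Tnf 31.5 kb away. Of 25 cytotoxic genes only the 3 chosen ones had a peak. Beside a share of 5.38%, 0 of the other 22 is no sign of a lack of peaks. The gene for perforin, Prf1, had none, and its nearest peak was 33.7 kb away and assigned to Adamts14.

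Among the receptors of the effector molecules, Ccr1, which encodes a receptor for CCL3, had an intergenic peak of 5.06-fold (2.21 to 10.7) 17.6 kb upstream. Csf2ra, the gene for the alpha chain of the GM-CSF receptor, had an intergenic peak of 5.53-fold (2.99 to 9.52) 37.2 kb upstream. These were 2 of 13 genes in a list of receptors and death pathway genes (15.4%, 1.92 to 45.4), beside 5.38% of all protein-coding genes. The list was chosen with earlier results of these data known, so its share was not tested. Ifngr1, Ifngr2, Xcr1, Il10ra, Il10rb and Fas had no assigned peak. The body of Xcr1 lay 1.04 kb from a peak of 4.22-fold that the authors assigned to Fyco1.

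Of 18 genes that act upstream of the effector genes, 5 had a peak (27.8%, 9.69 to 53.5), beside 5.38% of all protein-coding genes. This list too was chosen with earlier results of these data known, so its share was not tested and is no sign of enrichment. Stat4, which carries the interleukin-12 signal to Ifng, had 3, at 7.17-fold, 6.31-fold and 5.68-fold, all downstream of its start. Il2rb, a receptor chain for interleukin-15, had a peak of 7.33-fold 15.1 kb upstream of its assigned start, within the longer gene body of the table. Runx3, a Runt domain factor, had 1 of 7.24-fold and Stat3, a cytokine signal transducer, 1 of 5.21-fold, both at the start. Nfil3, a bZIP factor needed for NK cell development, had 1 of 5.06-fold 76.1 kb upstream. Tbx21 and Eomes, the T-box factors that drive Ifng and granzyme expression, had no assigned peak, and their nearest peaks were 588 and 3370 kb away.

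**Figure D5:**
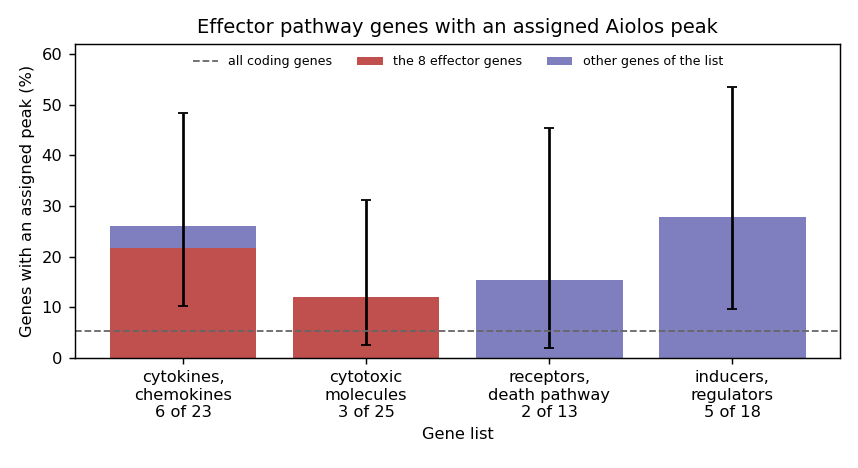
Share of genes with an assigned Aiolos peak in 4 gene lists, in percent, with 95% exact Clopper-Pearson intervals. Red marks the 8 effector genes, which were chosen for having a peak, and violet the other genes. The dashed line is the 5.38% of all protein-coding genes. All 4 lists were chosen with earlier results of these data known, so no share was tested. Outside the chosen genes, the cytokine list holds 1 gene with a peak and the cytotoxic list 0.

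The labelled cell type could be compared with peaks alone, since the list holds no expression values. Of 8 NK marker genes, Klrb1c and Klrd1 had an assigned peak, and 0 of 4 T cell, 0 of 3 B cell and 0 of 3 myeloid marker genes had any. With 5.38% of all protein-coding genes having a peak, lists this short say little: the upper 95% exact bound is 60.2% for 0 of 4 and 70.8% for 0 of 3. Genes of T cells outside the list did have a peak, such as Cd5 at 5.90-fold and Lef1 at 6.44-fold, both named after their values were seen. A peak is no measure of expression, so these counts neither identify the cells nor show that the effector genes were active.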

How the data were processed

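The deposited peak list of the Aiolos antibody library was the only file. The submitters' processing notes name MACS2, Bowtie2, Picard, SAMtools and mm10, with no roles. The library without antibody carries the label input, but its use as control for the folds, the q threshold and the duplicate filter are not stated there. Per the file headers, the authors deposited for each peak a fold (signal value), the -log10 of its p-value and q-value, a score of 10 times the -log10 q without decimals, a summit and an assigned gene.

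The fold was taken as tags plus 1 over background plus 1, and p as the Poisson probability of exceeding the tags. Solving both gave whole tags and a background for each peak, to within 1.75e-05 in -log10 p, and the solver was checked on simulated data. Intervals are exact Poisson intervals of the tags at 95% with the background fixed. They leave out the counting error of the background, so they are too narrow for the fold, and duplicates would add to this. Library depth is unknown.

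The genes and lists were chosen with earlier results of these data known, so nothing was tested. The text names the list genes that had a peak, except 1 gene that was left out of its list and is not reported here, and genes next to a member or between it and its peak. Gene bodies and promoter sequences came from RefSeq (GRCm38.p6), where all 1404 gene identifiers were found. Trac was not in its protein-coding table. Python 3.11.15, pandas 2.3.3 and SciPy 1.17.1 were used.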

Additional observations from a re-analysis of the deposited data

How the results depend on the processing

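Of 36 alternatives, 19 left the value within 1.5 times, or a median fold within its counting interval. The 727 peaks whose -log10 q was not below the median left 5 effector peaks of 4 genes, 3 of them away from the start and 5 nearest to their own gene, and 2 cytokine genes. The 687 peaks above the median fold left 2 effector peaks of 2 genes, both away from the start and nearest to their own gene, with 1 cytokine and 1 cytotoxic gene. Both sets hold fewer peaks by construction. With peak edges within 10000 bp of the start, 5 effector genes and 3 cytokine genes remained with a peak. Genes of any type as neighbours left 4 summits nearest to their own gene. Tags in place of fold gave a median of 7 tags, which is in another unit than fold and was not counted among the 19. Without the chosen genes, an alternative added after the data were seen, the cytokine list had 1 gene with a peak and the cytotoxic list 0. The 8 peaks away from the start stayed 8 with start windows of 500 and 3000 bp, with the authors' edge distance and with their annotation class. With a median of 7 tags, depth limits the reading of each peak. No paired analysis was possible because each group has only 1 library.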
